A study of Mus musculus with 24 samples.

Results

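The genes described here are 6 members of the interleukin-1 family and the partners that block or transmit its signal: the ligands Il1a, Il1b and Il18, the antagonists Il1rn and Il18bp, and the receptor subunit Il1rap. They were taken by gene name from a count table of 55401 genes, and each name matched 1 row. All 6 passed the filter on low counts and are among the 11717 genes tested.

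Interleukin-1 alpha and interleukin-1 beta bind one receptor, which signals once the accessory chain encoded by Il1rap joins the complex and brings in the adaptor Myd88. The antagonist encoded by Il1rn occupies that receptor without recruiting the accessory chain, and the binding protein encoded by Il18bp holds interleukin-18 away from its own receptor. Macrophages make interleukin-1 beta and interleukin-18 as precursors that caspase-1 cleaves inside inflammasomes before release. The values below are mRNA levels and give no amount of cleaved or secreted protein.

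The cells were bone marrow-derived macrophages of wild-type C57BL/6J mice, differentiated in L929 cell-conditioned medium, which supplies the growth factor M-CSF. Groups received no stimulus (untreated), 30 µM S14 (sphingomyelin d18:1/14:0, a membrane sphingolipid) or 100 ng/mL lipopolysaccharide (LPS, the bacterial ligand of Toll-like receptor 4), and were harvested at 3 h or 18 h. Each of the 6 groups has 4 libraries, so n = 4 for every mean, read from the 3′ ends of polyadenylated transcripts. The labels do not tie a library to a mouse or a culture, so the p-values measure only the spread between these libraries, which may be technical.

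Libraries held 3334182 to 6350251 reads in genes and detected 13405 to 15505 genes. All 8 macrophage markers looked at (Adgre1, Csf1r, Cd68 and others) were present, with a summed level of 15716 to 44909 CPM (reads of a gene per 1e6 reads of the TMM-scaled library). Markers of neutrophils, B cells, T or NK cells, dendritic cells and mast cells summed to at most 4.18 CPM in any library. Of 5 fibroblast markers, Dcn reached 13.8 ± 3.41 CPM (SD) with LPS at 18 h and at most 0.754 CPM in the other groups. Col1a1 and Col1a2 held 5 and 6 reads over all libraries, and 2 markers were at 0 throughout. In the LPS libraries at 18 h 9 mitochondrial transcripts summed to 6102 to 9204 CPM, against 9783 to 19064 CPM elsewhere. Of these, 6 were tested and the rest held at most 2 reads in all. The transcript mt-Co1 went the other way, at 375 ± 15.8 CPM with LPS at 18 h against means of 270 to 348 CPM in the other groups. The part of Dcn or of these transcripts in the results at 18 h was not tested. Directions are relative to the typical gene, and scaling to spike-in RNAs instead moved the typical (median) log2 fold change at 3 h by 0.11 (S14) and 0.34 (LPS), at 18 h by -0.97 (S14) and -0.64 (LPS), and over time in untreated cells by 0.83. The untreated library 4 at 18 h held the smallest share of spike-in reads, 0.0134% against 0.0333% to 0.0418% in the rest of its group, and without it the last 3 shifts were -0.48, -0.16 and 0.34. In bulk RNA of this kind, fewer cells of a type and less RNA per cell cannot be told apart.

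Il1a and Il1b lie next to each other on chromosome 2 of GRCm38, both on the minus strand and 54597 bases apart. Il1a (ENSMUSG00000027399) spans 129299610 to 129309972 and Il1b (ENSMUSG00000027398) spans 129364570 to 129371139. Il1rn (ENSMUSG00000026981) is on the same chromosome, plus strand, from 24336853 to 24351494. Il18 (ENSMUSG00000039217) is on chromosome 9, plus strand, from 50554827 to 50581840. Il18bp (ENSMUSG00000070427) is on chromosome 7, minus strand, from 102014885 to 102018690, and Il1rap (ENSMUSG00000022514) is on chromosome 16, plus strand, from 26581704 to 26730117. In GENCODE M21 all but Il1rn overlap a gene on the opposite strand. The sources used here do not give the strand setting of the authors' counting, so reads of such pairs cannot be told apart with certainty. Over all libraries the partners Il1bos and Gm14023 were given 12 and 49 reads, against 101721 for Il1b and 3062 for Il1a. Bco2 and Tex12 had 151 and 8 reads beside 4648 for Il18. Numa1, which shares 80 bases with the 3′ end of Il18bp, had 7165 reads beside 8912 for Il18bp, and this pair is the least certain.

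The start-site sequences of the 4 genes with the largest responses to LPS at 18 h are printed because they let the reader set the shared and separate responses below beside the DNA. Each runs from 250 bases before to 50 after a start in RefSeq's annotation of GRCm38.p6, 5′ to 3′ on the gene's strand. Capitals mark matches to the motifs searched on both strands. Il1rn has 3 such starts, of which numbers 1 and 3 are shown, and 3′ end reads do not tell them apart.
Il1a, chr2:129309923-129310222, minus strand: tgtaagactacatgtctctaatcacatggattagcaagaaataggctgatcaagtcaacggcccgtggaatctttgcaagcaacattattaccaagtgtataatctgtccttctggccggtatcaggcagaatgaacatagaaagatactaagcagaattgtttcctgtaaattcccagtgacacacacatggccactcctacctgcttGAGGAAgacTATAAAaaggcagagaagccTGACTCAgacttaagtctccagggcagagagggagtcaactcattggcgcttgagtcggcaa
Il1b, chr2:129371090-129371389, minus strand: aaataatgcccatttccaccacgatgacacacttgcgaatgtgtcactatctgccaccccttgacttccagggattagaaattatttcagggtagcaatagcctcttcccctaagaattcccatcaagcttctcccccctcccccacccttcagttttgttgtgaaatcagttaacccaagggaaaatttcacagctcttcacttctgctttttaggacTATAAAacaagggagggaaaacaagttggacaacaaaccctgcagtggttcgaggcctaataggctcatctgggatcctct
Il1rn start 1, chr2:24336610-24336909, plus strand: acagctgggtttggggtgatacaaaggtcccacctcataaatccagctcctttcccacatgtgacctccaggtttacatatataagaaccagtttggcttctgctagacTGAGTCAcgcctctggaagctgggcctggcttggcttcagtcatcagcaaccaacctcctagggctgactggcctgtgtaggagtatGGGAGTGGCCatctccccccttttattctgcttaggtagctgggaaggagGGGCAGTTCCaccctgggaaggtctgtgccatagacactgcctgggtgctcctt
Il1rn start 3, chr2:24345121-24345420, plus strand: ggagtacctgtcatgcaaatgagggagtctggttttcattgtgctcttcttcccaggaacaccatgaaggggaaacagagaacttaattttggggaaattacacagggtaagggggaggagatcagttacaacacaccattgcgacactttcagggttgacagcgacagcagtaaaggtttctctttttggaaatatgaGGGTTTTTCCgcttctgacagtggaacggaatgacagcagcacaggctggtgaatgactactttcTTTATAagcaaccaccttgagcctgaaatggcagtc
Il18bp, chr7:102018183-102018482, minus strand: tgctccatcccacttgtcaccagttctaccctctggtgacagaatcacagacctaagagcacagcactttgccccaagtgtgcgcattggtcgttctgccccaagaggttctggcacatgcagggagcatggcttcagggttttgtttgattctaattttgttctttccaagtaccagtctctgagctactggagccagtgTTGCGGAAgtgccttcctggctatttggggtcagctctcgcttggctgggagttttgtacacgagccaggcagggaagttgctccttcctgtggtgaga

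The Il1a and Il1b windows each hold TATAAA, the TATA box letters, starting 32 and 31 bases before the start. The letters TATAAA occur in 13.6% of the 32851 promoter windows searched. In Il1a they are flanked by GAGGAA (PU.1, in 28.3% of windows), 41 bases before the start, and by TGACTCA, a match to TGANTCA (AP-1, in 7.81%), 12 bases before it. Il1rn start 1 has TGAGTCA, also a match to TGANTCA, 141 bases before it and 2 matches to the NF-kB pattern, GGG, 5 bases of any kind and CC (in 50.8%), 54 and 4 bases before it. A further match to the NF-kB pattern lies 51 bases before Il1rn start 3, and TTTATA, the TATAAA letters on the other strand, lies 14 bases after it. Il18bp holds TTGCGGAA, a match to TTGCNNAA (C/EBP, in 10.8%), 49 bases before the start and none of the other motifs. Neither the ISRE pattern, GAAA, 2 bases of any kind and GAAA (in 3.44% of windows), nor TTCNNNGAA (GAS, in 8.3%) is in the 5 windows shown. These matches are descriptions of letters.

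Against untreated cells of the same time, S14 raised 5 of the 6 genes at 3 h and 4 at 18 h, and LPS raised 5 at each time. None was lower. Il1rap was the gene not called in any of these 4 comparisons, and Il18 was not called with S14 at 18 h. The Il1a call with S14 at 18 h rests on 11 reads against 0 in untreated cells. The threshold for a call was an adjusted p of 0.05 (edgeR's quasi-likelihood F test, Benjamini-Hochberg over all 11717 genes). Of all genes tested, 15.2% were called for S14 at 3 h (9.05% higher) and 24.3% at 18 h (12.6% higher). For LPS 55.5% were called at 3 h (25.3% higher) and 55.6% at 18 h (27.3% higher). The median log2 fold change of the 6 was 0.95 for S14 and 4.47 for LPS at 3 h and, at 18 h, 1.72 and 5.28. Over all genes the same medians were -0.03, -0.11, -0.02 and -0.04. The 2 treatments share their untreated libraries at each time.

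**Figure D1:**
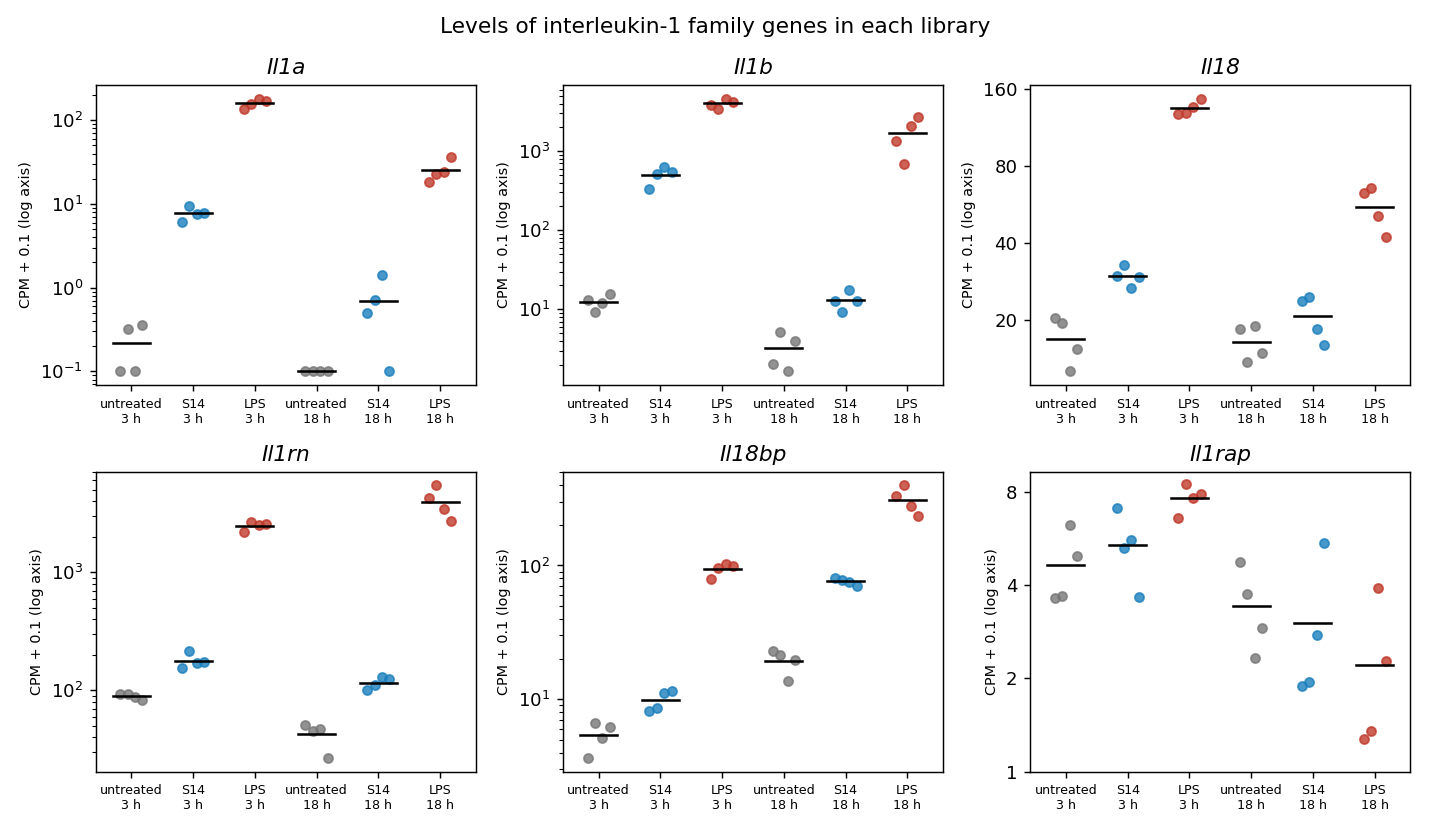
Level of each gene in each of the 24 libraries, as CPM + 0.1 on a log axis. Points are libraries, bars are group means, and colours mark untreated (grey), S14 (blue) and LPS (red) cells; Il1b averages 503 CPM with S14 and 4010.0 CPM with LPS at 3 h, while Il1rap stays under 9 CPM in every group.

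Il1b, the inducible interleukin-1 ligand, rose with both treatments at both times. Untreated libraries at 3 h held 13.0, 9.23, 11.9 and 15.6 CPM and S14 libraries 327, 515, 625 and 546 CPM. LPS libraries held 3789, 3406, 4619 and 4226 CPM. The 3 groups did not overlap. The rise was 40.7-fold with S14 (log2 5.35 ± 0.40 SE, edgeR adjusted p = 3.65e-09) and 324-fold with LPS (8.34 ± 0.43, edgeR adjusted p = 1.25e-12). At 18 h untreated libraries held 1.94, 5.06, 1.54 and 3.85 CPM and S14 libraries 12.8, 9.06, 17.5 and 12.6 CPM. LPS libraries at 18 h held 1339, 684, 2094 and 2668 CPM. Every S14 library was still above every untreated one of its time, at a level that overlapped untreated cells at 3 h. The S14 difference at 18 h was 4.16-fold (2.06 ± 0.59, edgeR adjusted p = 0.0153). It was not called without untreated library 3 at 18 h (1.80, edgeR adjusted p = 0.0507) or without untreated library 4 (2.17, edgeR adjusted p = 0.0507). With spike-in scaling of all libraries it was 1.17 (edgeR adjusted p = 0.0262). The LPS difference was 546-fold (9.09 ± 0.47, edgeR adjusted p = 1.88e-12).

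Il1a, the ligand that is active without caspase-1 cleavage, was close to undetected without stimulation. Untreated libraries held 0, 1, 0 and 1 reads at 3 h and 0 reads at 18 h. S14 libraries at 3 h held 5.94, 9.41, 7.59 and 7.80 CPM, and LPS libraries 137, 154, 182 and 169 CPM. The groups did not overlap, and both differences were called (edgeR adjusted p = 1.11e-10 and 2.41e-24). With 2 untreated reads in all, the CPM ratio was 66.3 with S14 (95% counting interval 18.0 to 552) and 1383 with LPS (383 to 11430). Without untreated library 4, which held 1 of those reads, the ratios were 102 and 2140. At 18 h S14 libraries held 0.399, 0.617, 1.33 and 0 CPM, 11 reads in all, and LPS libraries 18.3, 22.9, 23.9 and 36.2 CPM. The fourth S14 library had no read and so overlapped the untreated ones. Against a floor of 3 reads over the untreated group, Il1a was at least 4.74-fold higher with S14 and at least 208-fold higher with LPS (edgeR adjusted p = 0.00431 and 7.17e-19). The third S14 library held 6 of the 11 reads, and without it the bound with S14 was 2.75-fold (edgeR adjusted p = 0.0326). Il1a reached the tested set through its reads in stimulated groups. With untreated and S14 libraries at 18 h alone it did not pass the filter on low counts. Its p-values are therefore no independent support for a difference from untreated cells. The intervals and the floor speak to counting error alone.

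Il18, which macrophages express without stimulation, had the smallest fold changes of the 3 ligands. At 3 h the libraries held 20.3, 19.4, 12.5 and 15.3 CPM untreated, 29.7, 32.9, 26.8 and 29.5 CPM with S14, and 128, 129, 136 and 147 CPM with LPS. The groups did not overlap. The rise was 1.76-fold with S14 (0.82 ± 0.16, edgeR adjusted p = 1.64e-04) and 7.98-fold with LPS (3.0 ± 0.15, edgeR adjusted p = 6.76e-21). With spike-in scaling the S14 difference kept its size and lost its call (0.93, edgeR adjusted p = 0.147). At 18 h they held 18.4, 13.6, 18.9 and 14.9 CPM untreated, 23.7, 24.5, 18.4 and 15.9 CPM with S14, and 63.0, 65.7, 50.8 and 42.4 CPM with LPS. S14 and untreated libraries overlapped, with a log2 difference of 0.33 ± 0.16 (edgeR adjusted p = 0.132) that turned to -0.62 with spike-in scaling. The LPS difference was 3.36-fold (1.75 ± 0.15, edgeR adjusted p = 2.44e-13).

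Il1rn, the receptor antagonist, rose with both treatments at both times. At 3 h the libraries held 93.0, 93.0, 87.4 and 83.0 CPM untreated, 153, 215, 169.9 and 173 CPM with S14, and 2189.6, 2685, 2490.5 and 2583 CPM with LPS. S14 libraries stood above all untreated ones and far below LPS. The differences were 2.00-fold with S14 (1.00 ± 0.19, edgeR adjusted p = 6.23e-04) and 27.9-fold with LPS (4.80 ± 0.21, edgeR adjusted p = 2.52e-14). At 18 h they held 50.7, 45.1, 47.3 and 26.6 CPM untreated, 100.3, 111, 129.9 and 124 CPM with S14, and 4240.2, 5449.9, 3431 and 2732 CPM with LPS. Again no groups overlapped. The differences were 2.74-fold with S14 (1.45 ± 0.20, edgeR adjusted p = 1.42e-05) and 93.3-fold with LPS (6.54 ± 0.22, edgeR adjusted p = 7.13e-16). With spike-in scaling the S14 difference at 18 h was 0.63 (edgeR adjusted p = 0.05004, not called), and 0.81 (edgeR adjusted p = 0.0127) when untreated library 4 was also left out.

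Il18bp, the soluble inhibitor of interleukin-18, rose with both treatments at both times too. At 3 h the libraries held 3.53, 6.53, 5.06 and 6.13 CPM untreated, 8.01, 8.47, 11.0 and 11.5 CPM with S14, and 79.5, 96.1, 102 and 98.7 CPM with LPS. None of the groups overlapped. The differences were 1.86-fold with S14 (0.89 ± 0.24, edgeR adjusted p = 0.00565) and 17.6-fold with LPS (4.14 ± 0.19, edgeR adjusted p = 7.70e-21). With spike-in scaling the S14 difference was 1.03 and not called (edgeR adjusted p = 0.125). At 18 h they held 22.8, 21.2, 13.7 and 19.6 CPM untreated, 80.7, 77.8, 74.7 and 70.7 CPM with S14, and 330.0, 397, 278 and 233 CPM with LPS. The S14 libraries lay between the other groups and overlapped only LPS cells at 3 h. The differences were 3.96-fold with S14 (1.99 ± 0.15, edgeR adjusted p = 6.33e-13) and 16.1-fold with LPS (4.01 ± 0.15, edgeR adjusted p = 4.92e-23). Spike-in scaling brought the S14 difference to 1.01 (edgeR adjusted p = 0.00804) and the LPS difference to 3.31 (edgeR adjusted p = 6.35e-12).

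Il1rap, the accessory chain of the interleukin-1 receptor, was low throughout, with 37 to 115 reads per group. At 3 h the libraries held 3.53, 3.60, 6.16 and 4.85 CPM untreated, 6.98, 5.18, 5.48 and 3.56 CPM with S14, and 6.49, 8.36, 7.53 and 7.79 CPM with LPS. LPS libraries lay above all untreated ones, while S14 overlapped both. The log2 differences were 0.21 ± 0.37 with S14 (edgeR adjusted p = 0.808) and 0.73 ± 0.37 with LPS (edgeR adjusted p = 0.0880, with 0.0298 to 0.188 over the alternatives tried). At 18 h they held 4.64, 3.64, 2.24 and 2.80 CPM untreated, 1.79, 1.85, 2.66 and 5.39 CPM with S14, and 1.17, 1.26, 3.80 and 2.18 CPM with LPS. All 3 groups overlapped. The differences were -0.19 ± 0.39 with S14 (edgeR adjusted p = 0.779) and -0.63 ± 0.41 with LPS (edgeR adjusted p = 0.197, with 0.0471 to 0.429 over the alternatives tried).

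**Figure D2:**
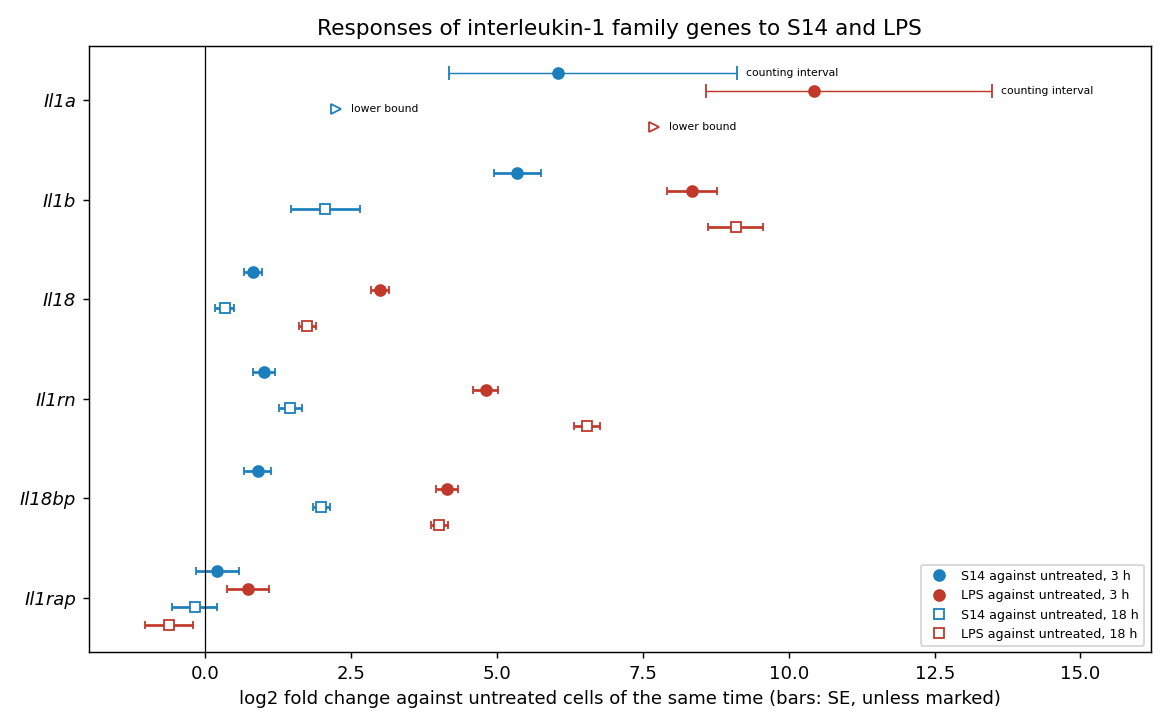
Log2 fold change of each gene against untreated cells of the same time, with S14 in blue, LPS in red, 3 h as filled circles and 18 h as open squares. Bars are 1 SE, except for Il1a, where they are 95% counting intervals at 3 h and arrowheads are lower bounds at 18 h; S14 lies left of LPS for every gene but Il1rap, whose values sit around 0.

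S14 was set against LPS at the same time, at the single dose used of each. S14 gave lower levels of 5 genes, all but Il1rap, at both times, and each difference was called. Their S14 and LPS libraries did not overlap, for which no share over all genes is given. Of all genes, 46.1% were called in this comparison at 3 h (22.4% lower with S14) and 42.6% at 18 h (21.3% lower). At 3 h the level with S14 was 7.96-fold lower for Il1b (log2 -2.99 ± 0.31, edgeR adjusted p = 1.19e-07), 20.8-fold for Il1a, 14.0-fold for Il1rn, 9.49-fold for Il18bp and 4.54-fold for Il18. The gap at 18 h was 131-fold for Il1b (-7.03 ± 0.41, edgeR adjusted p = 2.50e-11), 41.7-fold for Il1a, 34.1-fold for Il1rn, 4.07-fold for Il18bp and 2.67-fold for Il18. For Il1a it was 67.7-fold without the third S14 library (edgeR adjusted p = 5.68e-16). For Il1rap the log2 difference was -0.52 ± 0.36 at 3 h and 0.44 ± 0.43 at 18 h (edgeR adjusted p = 0.244 and 0.430).

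Over time the ligands and Il18bp went opposite ways under both treatments. Between 3 h and 18 h with S14, 4 members fell and 1 rose, where 43.2% of all genes were called (22.2% lower, 21% higher). With LPS, 4 fell and 2 rose (64.3% of all genes called, 32.7% lower and 31.7% higher). In untreated cells 2 fell and 1 rose (38.8% called, 19.6% lower and 19.2% higher). Il1b fell 3.98-fold in untreated cells (log2 -1.99 ± 0.61, edgeR adjusted p = 0.0138), 38.9-fold with S14 (-5.28 ± 0.39, edgeR adjusted p = 1.01e-09) and 2.36-fold with LPS (-1.24 ± 0.29, edgeR adjusted p = 0.00107). Il1a fell 12.7-fold with S14 and 6.32-fold with LPS (edgeR adjusted p = 6.96e-10 and 5.37e-16). The S14 value was -4.36 in place of -3.66 on the log2 scale without S14 library 3 at 18 h, which held 6 of the 11 reads. Il18 fell 1.43-fold with S14 and 2.43-fold with LPS (edgeR adjusted p = 0.00612 and 5.97e-11), the former not called with spike-in scaling (-0.79, edgeR adjusted p = 0.0979). In untreated cells its log2 difference was -0.04 ± 0.17 (edgeR adjusted p = 0.882).

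The antagonists split. Il18bp rose in all 3 conditions, 3.60-fold in untreated cells (1.85 ± 0.21, edgeR adjusted p = 4.08e-09), 7.67-fold with S14 (2.94 ± 0.17, edgeR adjusted p = 3.47e-17) and 3.29-fold with LPS (1.72 ± 0.13, edgeR adjusted p = 4.74e-14). Il1rn fell 2.1-fold in untreated cells (-1.07 ± 0.20, edgeR adjusted p = 2.39e-04) and 1.53-fold with S14 (-0.61 ± 0.19, edgeR adjusted p = 0.0109), and rose 1.59-fold with LPS (0.67 ± 0.17, edgeR adjusted p = 0.00204). Spike-in scaling ended its call in untreated cells (-0.39, edgeR adjusted p = 0.246) and with LPS (0.45, edgeR adjusted p = 0.207). Il1rap fell 3.52-fold with LPS (-1.81 ± 0.40, edgeR adjusted p = 1.22e-04), to levels that did not overlap those at 3 h. It was not called with S14 (-0.85 ± 0.39, edgeR adjusted p = 0.0717, with 0.0107 to 0.205 over the alternatives tried) or untreated (-0.46 ± 0.38, edgeR adjusted p = 0.354).

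Whether a response to treatment differed between the times was tested as an interaction, the fold change at 18 h minus that at 3 h, in which 16.6% of all genes were called for S14 (7.61% higher, 8.98% lower) and 51.2% for LPS (25.1% higher, 26.1% lower). For S14, 2 members were called: Il1b had a smaller response at 18 h (log2 -3.29 ± 0.82, edgeR adjusted p = 0.00845) and Il18bp a larger one (1.09 ± 0.29, edgeR adjusted p = 0.00619). The Il1b call was lost without untreated library 2 at 18 h (-2.93, edgeR adjusted p = 0.0517) or library 4 (-3.18, edgeR adjusted p = 0.0586). That of Il18bp went to -0.02 with spike-in scaling (edgeR adjusted p = 0.968) and to 0.50 when untreated library 4 was also left out (edgeR adjusted p = 0.380). For LPS, 3 members were called: Il1rn had a larger response at 18 h (1.74 ± 0.26, edgeR adjusted p = 1.31e-05), and Il18 (-1.25 ± 0.21, edgeR adjusted p = 4.62e-06) and Il1rap (-1.36 ± 0.55, edgeR adjusted p = 0.0368) smaller ones. The Il1rn value was 0.84 with spike-in scaling (edgeR adjusted p = 0.0853) and 1.02 without untreated library 4 as well (edgeR adjusted p = 0.00840). The Il18 value was -2.25 under that scaling (edgeR adjusted p = 8.99e-05). The Il1rap call was lost with no filter on low counts (-1.33, edgeR adjusted p = 0.0703) and without any one of 8 libraries, where it ran from -1.34 to -1.15: untreated 1 and 2 at 3 h, LPS 2 and 4 at 3 h, untreated 1 and 2 at 18 h, and LPS 1 and 2 at 18 h. The Il1b response to LPS was not called different between times (0.75 ± 0.68, edgeR adjusted p = 0.379), and neither was that of Il18bp (-0.13 ± 0.25, edgeR adjusted p = 0.685, with 0.0379 to 0.964 over the alternatives tried). The Il18bp value ran from -1.18 to 0.023 over them. The Il18 response to S14 was not called either (-0.48 ± 0.23, edgeR adjusted p = 0.152, with 0.0139 to 0.343 over the alternatives). Its value ran from -1.54 to -0.36.

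Antagonist and ligand were also compared inside each library, as the ratio of Il1rn to Il1b reads and of Il18bp to Il18 reads, which no scaling of libraries can change. Reads from the 3′ ends of 2 genes need not be captured alike, so the ratios are compared between groups only. The Il1rn to Il1b ratio was 7.13, 9.96, 7.29 and 5.29 in untreated libraries at 3 h, 0.469, 0.418, 0.272 and 0.318 with S14, and 0.578, 0.788, 0.539 and 0.611 with LPS. All 3 groups were apart, with S14 lowest. The log2 difference from untreated cells was -4.33 with S14 and -3.54 with LPS, and S14 was 0.79 lower than LPS (log2 -0.79). Each had a two-sided exact permutation p of 0.0286, the smallest that 4 against 4 libraries can give (0.0429 adjusted over the 12 ratio tests). At 18 h the ratio was 25, 8.78, 29.4 and 6.78 untreated, 7.81, 12.1, 7.38 and 9.78 with S14, and 3.17, 7.97, 1.64 and 1.02 with LPS. The groups overlapped. The log2 differences were -0.67 with S14 (exact permutation p = 0.343, 0.374 adjusted), -2.5 with LPS (exact permutation p = 0.0571, 0.0762 adjusted) and 1.83 between S14 and LPS (exact permutation p = 0.0857, 0.103 adjusted).

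The Il18bp to Il18 ratio was compared in the same way. At 3 h it was 0.179, 0.341, 0.409 and 0.405 untreated, 0.273, 0.260, 0.412 and 0.393 with S14, and 0.623, 0.747, 0.750 and 0.673 with LPS. S14 and untreated libraries overlapped (log2 0.04, exact permutation p = 0.943, 0.943 adjusted), and LPS libraries lay above both. At 18 h it was 1.24, 1.55, 0.727 and 1.32 untreated, 3.39, 3.17, 4.04 and 4.41 with S14, and 5.23, 6.04, 5.47 and 5.49 with LPS. These 3 groups did not overlap. The log2 differences were 1.13 for LPS at 3 h, 1.67 for S14 and 2.25 for LPS at 18 h, and -1.09 and -0.58 for S14 against LPS at 3 h and 18 h. Each of the 5 had an exact permutation p of 0.0286, the smallest possible (0.0429 adjusted).

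**Figure D3:**
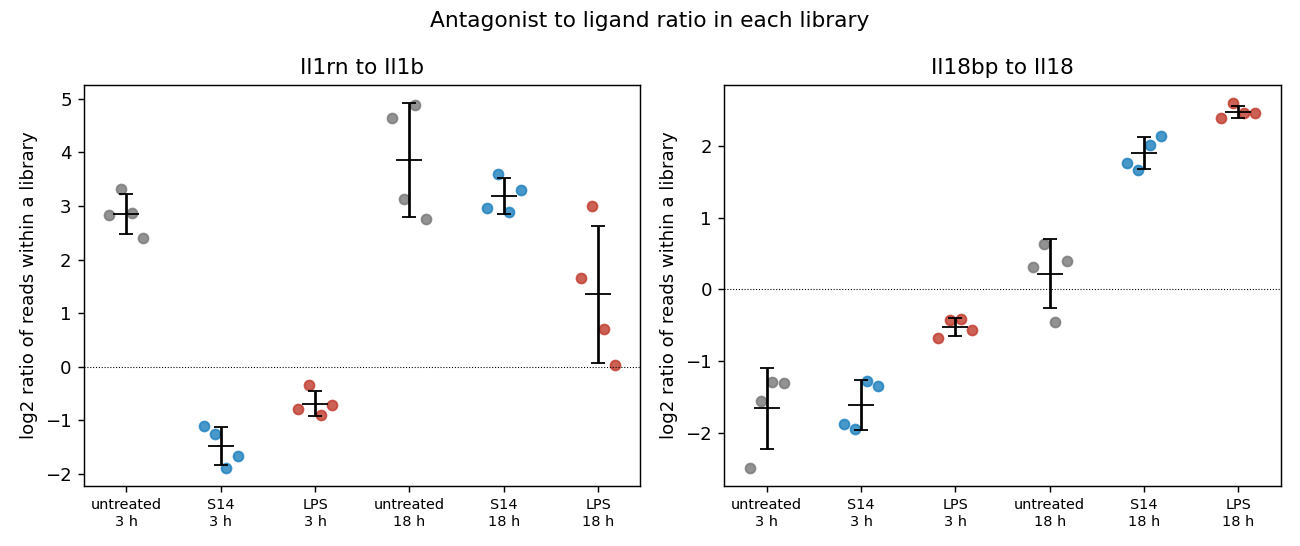
Log2 ratio of antagonist to ligand reads within each library, Il1rn to Il1b on the left and Il18bp to Il18 on the right, by group. Points are libraries, bars are mean ± SD over 4 libraries, and the dotted line marks equal reads; the Il1rn to Il1b ratio lies under the line with S14 and LPS at 3 h, and Il18bp to Il18 lies above it in all S14 and LPS libraries at 18 h.

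The 4 LPS libraries at 18 h differed among themselves more in Il1b than in nearly any other gene. The coefficient of variation of Il1b there was 51.1%, the second highest of 1910 genes with a mean of at least 100 CPM, whose median was 8.37%. Il1rn (29.5%) ranked 17 and Il18bp (22.8%) ranked 53. The order of the libraries was the same for Il1rn, Il18bp and Il18, from library 4 as the lowest through 3 and 1 to 2, and the reverse for Il1b. Relative to the group mean, library 2 stood at 0.403 for Il1b and 1.38 for Il1rn, and library 4 at 1.57 and 0.689. The Il1rn to Il1b ratio therefore spanned 7.79-fold within this group, against 1.46-fold with LPS at 3 h. Library 4 also held the smallest share of spike-in reads of the 4, 0.0218% against 0.0372% to 0.0434%, and its part in the order was not tested. With S14 at 3 h Il1b was also variable for its level (25.1%, rank 4 of 1798 genes), library 1 being the lowest.

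**Figure D4:**
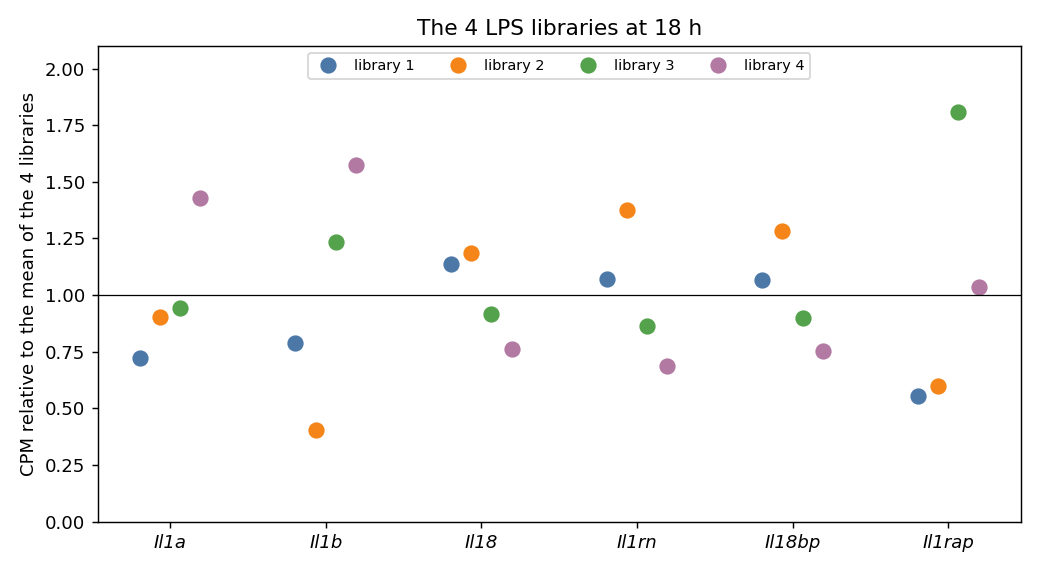
CPM of each gene in the 4 LPS libraries at 18 h, divided by the mean of the 4. Each colour is a library; library 2 is lowest for Il1b (0.403) and highest for Il18, Il1rn and Il18bp, and library 4 the reverse. Il1rap rests on 5 to 17 reads per library.

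A further list held genes that cleave or release the ligands. Of 13 such genes, all tested, 6 were higher and 2 lower with S14 at 3 h, and 8 were higher and 2 lower with LPS, with medians of 0.34 and 1.26 on the log2 scale against -0.03 and -0.11 over all genes. Of all genes tested, 15.2% were called with S14 and 55.5% with LPS. With S14 the largest changes were in Nlrp3, the inflammasome sensor (57.8 ± 19.4 CPM untreated and 179 ± 28.2 CPM with S14, log2 1.64 ± 0.17, edgeR adjusted p = 9.38e-09), Casp4, the caspase that binds cytosolic LPS (1.26 ± 0.13), and Mefv, which encodes pyrin (1.16 ± 0.29, not called with spike-in scaling, edgeR adjusted p = 0.177). With LPS they were in Aim2, a DNA sensor (3.02 ± 0.16), Casp4 (2.84 ± 0.13) and Casp1, which cleaves both precursors (2.43 ± 0.10, from a mean of 161 to 867 CPM). Nlrp3 was also higher with LPS at 3 h, at 170 ± 19.7 CPM (1.56 ± 0.17, edgeR adjusted p = 3.94e-09). Casp1 was also higher with S14 at 3 h (0.77 ± 0.09, edgeR adjusted p = 1.48e-08). At 18 h 3 were higher and 1 lower with S14 and 7 higher and 3 lower with LPS, with medians of -0.01 and 0.40, where 24.3% and 55.6% of all genes were called. With LPS Mefv (3.64 ± 0.29), Ninj1, which takes part in membrane rupture (1.57 ± 0.08), and Casp4 (1.35 ± 0.13, not called with spike-in scaling, edgeR adjusted p = 0.223) changed most. With S14 they were Mefv (1.52 ± 0.32, not called with spike-in scaling, edgeR adjusted p = 0.601), Capn2 (-0.73 ± 0.09) and Ninj1 (0.56 ± 0.08, which went to -0.45 with spike-in scaling). Nlrp3 at 18 h stood at 20.4 ± 2.34 CPM untreated, 13.9 ± 0.377 CPM with S14 and 26.2 ± 6.53 CPM with LPS, and was not called with either.

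Of 13 genes that carry the signal from the receptor, 5 were higher and none lower with S14 at 3 h, and 6 were higher and 4 lower with LPS, with medians of 0.23 and 0.28, beside the 15.2% and 55.5% of all genes called. At 18 h 3 were higher and 1 lower with S14 and 6 higher and 1 lower with LPS, with medians of 0.10 and 0.28, beside 24.3% and 55.6% of all genes. Peli1, a ubiquitin ligase of this pathway, changed most at 3 h with both S14 (1.76 ± 0.08) and LPS (3.89 ± 0.09). At 18 h it was higher with LPS (1.71 ± 0.08) and with S14 (0.42 ± 0.08, which went to -0.55 with spike-in scaling). Irak3, a kinase-like inhibitor of the pathway, was higher with S14 (1.45 ± 0.16) and LPS (1.05 ± 0.17) at 3 h, and at 18 h with LPS (2.06 ± 0.16) and with S14 (0.82 ± 0.16, which went to -0.24 with spike-in scaling). The kinase Irak2 was higher at 3 h with S14 (1.19 ± 0.10) and LPS (1.89 ± 0.10), and with LPS at 18 h (0.60 ± 0.10, which went to -0.094 with spike-in scaling). Traf6, the ubiquitin ligase that acts after these kinases, was lower with S14 at 18 h (-0.69 ± 0.19, edgeR adjusted p = 0.00454). The adaptor Myd88 was higher at 3 h with LPS (2.20 ± 0.09) and with S14 (0.88 ± 0.09, edgeR adjusted p = 6.77e-11).

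Other ligands and receptors of the family were listed as well. Of 6 further ligands 1, Il33, was tested, with 86 reads over the LPS libraries at 3 h and none in untreated cells, which makes it at least 32.2-fold higher (edgeR adjusted p = 2.78e-06, and 0.199 by DESeq2). Il33 passed the filter on low counts only through those LPS libraries, so its p-values are no independent support. Of 9 further receptors 5 were tested: none was called with S14 at 3 h, and with LPS at 3 h Il18rap, a chain of the interleukin-18 receptor, was higher (4.36 ± 1.56 CPM untreated and 27.6 ± 5.24 CPM with LPS, 2.65 ± 0.37). Sigirr was lower with LPS at 3 h (-3.34 ± 1.10, edgeR adjusted p = 0.0100), at low levels of 2.20 ± 1.85 CPM untreated and 0.191 ± 0.236 CPM with LPS. Il1rl1, the interleukin-33 receptor, stood at 6.12 ± 1.92 CPM in untreated cells at 18 h, at 0.745 ± 0.514 CPM with S14 (-3.0 ± 0.60, edgeR adjusted p = 1.90e-04) and at 0 with LPS, at least 36.0-fold lower. Il1r1, the signalling receptor of interleukin-1, was at or under 0.273 CPM in 5 groups and at 4.64 ± 1.28 CPM with LPS at 18 h, where it was called together with Il1r2, the decoy receptor (0.932 ± 0.234 CPM). Il1r1 too passed the filter on low counts only through the LPS libraries at 18 h. Sigirr, Il1r1 and Il1r2 were named after their values were seen. Dcn, a fibroblast marker, was highest in those same LPS libraries, while the other fibroblast markers held 0 to 6 reads over all libraries. The part of Dcn in the Il1r1 level was not tested.

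Across the 24 libraries, the members fell into like and unlike pairs in their log2 CPM. Pearson's r was 0.97 for Il1a and Il1b, 0.95 for Il1a and Il18 and 0.89 for Il1b and Il1rn. Il18bp was less like the ligands (0.51 to 0.61) than like Il1rn (0.76), and Il1rap ran from -0.36 with Il18bp to 0.29 with Il1a. These values describe 6 groups of 4 libraries that share treatment and depth, and they carry no test. Among 9058 other genes with a group mean of at least 10 CPM, the 3 most like Il1b were Socs3 (0.98), Slc7a2 (0.98) and Ralgds (0.97). Il1a was close to Jak2 (0.99) and Ralgds (0.98), and for Il18 the 3 were Usp18 (0.98), Tor1aip2 (0.98) and Igtp (0.97). Il1rn was nearest to Rgl1 (0.99), Pfkfb3 (0.98) and Timp1 (0.98), and Il18bp to Ms4a6d (0.99), Irf7 (0.98) and Hk3 (0.98). Il1rap had no gene as close, its highest being Nsun2 (0.87), Hnrnpm (0.86) and Srsf3 (0.85).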

How the data were processed

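The mRNA of 24 libraries (QuantSeq 3′ FWD, 150 ng of total RNA, 15 PCR cycles, per the labels' protocols) was analysed from 2 tables. The first, deposited by the authors, gives a count of whole reads for 55401 genes and 7 ribosomal RNA entries (left out). The second, which the authors deposited as normalized values, holds a signal: reads divided by 1 factor per library. All its values came out whole (100% within 0.01 of a read) and it also holds 114 spike-in RNAs. The submitters' processing notes name GRCm38, DESeq2, featureCounts 1.6.4, Subread, STAR 2.6.1a, FastQC and cutadapt 1.18. The sources used here do not give their order, the annotation release or the strand setting. The count table's columns call the control cells "Veh" and the sample labels call them untreated.

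Genes passed edgeR's filterByExpr (minimum count 10, total 15). After TMM scaling, edgeR 4.0.16 (R 4.3.3) fitted 1 mean per group over 24 libraries (18 residual degrees of freedom) with a robust quasi-likelihood F test and Benjamini-Hochberg adjustment. The SE is the log2 fold change over the square root of F. Ratios added 0.5 to each count and used exact permutation tests, two-sided (SciPy 1.17.1). Floors are 3 reads over a group, and intervals are 95%. PCR copies cannot be told from independent molecules, since there are no molecular identifiers. Counts were also simulated for S14 against untreated cells at 3 h and fitted with those groups alone (10585 genes). There the test called 49.1% of the genes raised or lowered 1.5-fold, 78.1% of those at 2-fold and 98.6% of those at 4-fold. The fit over 24 libraries was not simulated.

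The 6 members, the lists, the motifs and the tests were chosen with earlier results of these data known. Of each list, the text names, for each treatment against untreated cells, the 3 called genes with the largest change at 5 CPM or more. Of the genes most like a member, it names 3, except that 1 item is not reported here. Alternatives were RLE scaling, DESeq2 1.42.0, no filter, only the groups compared, a replicate block, reads recovered from the second table, spike-in scaling with and without untreated library 4 at 18 h, and leaving out each library.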

Additional observations from a re-analysis of the deposited data

Results flagged for a closer look

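A response to treatment that differed between 3 h and 18 h was called for 5 member results by the interaction test (edgeR's quasi-likelihood F test, Benjamini-Hochberg over all genes). With S14, the log2 fold change at 18 h minus that at 3 h was -3.29 for Il1b and 1.09 for Il18bp. With LPS it was -1.25 for Il18, 1.74 for Il1rn and -1.36 for Il1rap. Of all genes, 16.6% were called in this test for S14 and 51.2% for LPS. The calls of Il1b, Il18bp, Il1rn and Il1rap were each lost under an alternative given above, and that of Il18 was kept. The untreated libraries of each time enter both responses. No library stood apart from the other 3 of its group in any of the 36 sets of 4 values (6 genes in 6 groups) by Dixon's test.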

How the results depend on the processing

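Of the 66 member results (6 genes in 11 comparisons), none changed direction or its side of the threshold with RLE scaling, with reads recovered from the second table or with a replicate block. DESeq2 moved 2 results and the fit of only the groups compared 2, all to called, and no filter on low counts ended 1 call (Il1rap, LPS between times). The fit of only the groups compared held no value for Il1a with S14 at 18 h against untreated cells or in untreated cells over time. Nor did it for Il1rap with S14 against LPS at 18 h. There these genes did not pass the filter on low counts. Over these 66 results and the settings other than leaving out a library, 498 kept direction and side, 8 turned, 8 became called and 11 lost their call. Leaving out 1 library, 600 kept them, 9 turned, 3 became called and 12 lost their call. Replicate numbers were not taken to pair libraries, since the labels do not tie a library to a mouse or a culture. Deviations from group means correlated over 0.1 in 1 of 60 pairs (-0.10 to 0.14, median 0.026), which does not decide the point. Of 24 libraries, each set against 4 replicate numbers, 17 correlated best with their own number, a hint from the data and not from the design.

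Scaled to spike-in reads, an alternative taken up with the earlier results known, 3 members in place of 5 were called with S14 at 3 h. Directions turned under it for Il18 (-0.62), Ninj1 (-0.45), Irak3 (-0.24) and Peli1 (-0.55) with S14 at 18 h, Irak2 (-0.094) with LPS at 18 h, Il18 (0.76), Il1rap (0.26), Mefv (0.23) and Map3k7 (0.21) in untreated cells over time, and Il1rn (-0.48) and Il18bp (-0.020) in the S14 response between times. With untreated library 4 at 18 h also left out, they turned for Il18 (-0.21) and Peli1 (-0.072) with S14 at 18 h, Il18 (0.35) in untreated cells over time and Il1rn (-0.30) in the S14 response between times. The cause was not tested.

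Leaving out 1 library turned 5 results that are not called: Il18 in untreated cells over time (-0.16 to 0.060), Il1rap with S14 at 18 h (-0.65 to 0.0087) and with S14 against LPS at 18 h (-0.021 to 0.89), and, in the LPS response between times, Il1a (-0.72 to 0.13) and Il18bp (-0.27 to 0.023). Without untreated library 2 or 4 at 18 h, 1 member in place of 2 was called in the S14 response between times.

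The 12 ratio tests cannot pass adjustment with 3 against 4 libraries. Without 1 library, the Il1rn to Il1b difference ran from -4.48 to -4.17 with S14 and from -3.69 to -3.39 with LPS at 3 h, from -1.03 to -0.33 and from -3.05 to -2.06 at 18 h, and for S14 against LPS from -0.91 to -0.65 at 3 h and from 1.4 to 2.38 at 18 h. That of Il18bp to Il18 ran from -0.23 to 0.17 with S14 and from 0.86 to 1.26 with LPS at 3 h, from 1.45 to 1.81 and from 2.02 to 2.39 at 18 h, and for S14 against LPS from -1.20 to -0.98 and from -0.66 to -0.50. With the replicate block (an exact sign-flip test of 4 pairs, which cannot give a p under 0.125 and so decides nothing, adjusted p 0.150 for each) the differences were -4.33, -3.54 and -0.79 for Il1rn to Il1b at 3 h, and 1.13 (LPS at 3 h), 1.67 and 2.25 (S14 and LPS at 18 h), -1.09 and -0.58 (S14 against LPS) for Il18bp to Il18.

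Over all genes, spike-in scaling called 374 (346 higher, 28 lower) in place of 1786 (1060, 726) with S14 at 3 h, 3296 (2341, 955) for 6500 (2964, 3536) with LPS at 3 h, 7639 (106, 7533) for 2844 (1480, 1364) with S14 at 18 h, 5221 (695, 4526) for 6517 (3200, 3317) with LPS at 18 h, 2232 (612, 1620) for 5399 (2775, 2624) and 1915 (519, 1396) for 4996 (2496, 2500) with S14 against LPS at 3 h and 18 h, 5639 (5426, 213) for 4547 (2249, 2298) in untreated cells over time, 1775 (462, 1313) for 5061 (2463, 2598) with S14 over time, 4386 (1641, 2745) for 7538 (3710, 3828) with LPS over time, 4115 (20, 4095) for 1944 (892, 1052) in the S14 response and 4857 (381, 4476) for 6000 (2943, 3057) in the LPS response. Without untreated library 4 at 18 h as well, the counts were 795, 4671, 2291, 3985, 3679 at 18 h and 3479 at 3 h for S14 against LPS, 2426 in untreated cells, 3374 and 5866 over time, and 1416 and 4233 for the responses.

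Depth limits Il1rap (37 to 115 reads per group) and Il1a in untreated cells and with S14 at 18 h (0 to 11 reads). Spike-in scaling rests on 705 to 2588 reads per library.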
